A study of Mus musculus with 23 samples.

Results

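The transcripts described here are those of 37 mouse genes of the Wnt pathway, chosen by name: 19 Wnt ligands, 9 secreted antagonists of the Dkk, Sfrp and Wif families, the co-receptors Lrp5 and Lrp6, the scaffolds Axin1 and Axin2 with beta-catenin (Ctnnb1), and the 4 TCF/LEF transcription factors. All 37 were found among the 23369 gene names in the RNA-seq tables, each on a single row. They were followed in Kdm2b fl/fl mouse embryonic stem cells (ESCs), in which both alleles have loxP sites on either side of an exon holding the larger part of the ZF-CxxC domain of KDM2B, a protein that binds nonmethylated CpG dinucleotides. The allele was made in MS12 ESCs and passed through the mouse, and the ESC lines raised from those animals also carry a single copy of ERT2-Cre at Rosa26. The 6 RNA samples are 3 labelled untreated and 3 labelled as given 4-hydroxytamoxifen for 72 hr, called tamoxifen samples below. Before treatment, both groups have the same floxed alleles and the same Cre. The paper reports that tamoxifen deletes the floxed exon, so that the protein made lacks the ZF-CxxC domain. By that report the groups differ in this exon as well as in the drug. The dose is 800 nM in the sample labels and 800 µM in the series text. Cells were grown in serum and LIF on mitotically inactivated mouse embryonic fibroblasts and left overnight off the feeders before use. The names of the deposited files read the other way round from the sample titles for all 6 samples. Groups follow the titles here, and under the reading of the file names every fold change keeps its size and changes sign. The methods call the replicates biological triplicates without saying that they were separate cultures, so p-values measure the spread between these samples.

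Wnt proteins are secreted, lipid-modified signals that bind Frizzled receptors together with LRP5 or LRP6. Without a Wnt, a destruction complex built on Axin marks beta-catenin for degradation. With a Wnt, beta-catenin accumulates and joins TCF/LEF factors at target genes, Axin2 among them. In ESCs this pathway favours self-renewal, largely by relieving the repression that TCF7L1 exerts on pluripotency genes, and in the embryo Wnt3 is needed to form the primitive streak.

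Levels are given as FPKM (a fragment total per gene, adjusted for the length of the gene model and for the size of the library), as the authors scaled them. Their sum over all genes differed between samples, from 549379 in untreated replicate 1 to 1045710 in untreated replicate 2, so values were also rescaled to a common sum (TPM). That moved the median log2 difference of all tested genes from -0.02 to 0.08. Each triplet of values is in the order of replicates 1, 2 and 3. Differences are on the scale of log2(FPKM + 0.1), tamoxifen minus untreated, which understates those of low genes. They were tested with limma over the 12997 genes with at least 0.5 FPKM in at least 3 of the 6 samples, with Benjamini-Hochberg adjustment over those genes. Replicates that share a number in the untreated and tamoxifen groups varied together, so tests are given both without a block and with a block for the number. The block leaves the fold change as it is and alters its error.

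Of the 37 genes, 22 passed the filter and 15 did not. Those 15 stayed under 1 FPKM in all samples, the highest value being 0.988 FPKM. Wnt6 and Sfrp4 passed mainly through the group in which they were higher, so counts over the 22 describe the tested genes and not the whole family. Without the block, 0 of the 22 passed an adjusted p of 0.05, and the share of all tested genes that did was 0.0308%. At an unadjusted p under 0.05 the same test held 4 of the 22 and 4.79% of all tested genes. With the block, 5 of the 22 fell (Wnt5a, Wnt6, Wnt7b, Wnt9a and Sfrp2) and 0 rose, where 6.06% of all tested genes fell and 4.33% rose. The median log2 difference was -0.21 over the 22 genes and -0.02 over all tested genes. Among the 8 tested ligands alone it was -0.73.

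Without replicate 2 in both groups, 0 of the 22 genes passed with the block, where 0.331% of all tested genes fell. The log2 differences themselves were then -1.20 for Wnt9a, -1.21 for Wnt6, -0.81 for Wnt5a, -0.62 for Wnt7b and -0.62 for Sfrp2. Without replicate 3 the genes that passed were Wnt3, Wnt8a, Wnt9a and Sfrp2, where 3.68% of all tested genes fell, and without replicate 1 they were the 5 named above, where 7.78% fell. Scaling mattered too. Under quantile normalization with the block only Wnt6 and Wnt9a of the 22 passed, where 4.58% of all tested genes fell, and all called genes then divided into 604 higher and 595 lower in place of 563 and 787. Under scaling to TPM with the block Wnt6, Wnt9a and Sfrp2 passed, where 2.59% of all tested genes fell, with 430 genes higher and 336 lower.

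A count that needs no filter is that of genes whose 3 tamoxifen values all lie on the same side of the 3 untreated values. Of the 37 genes, 12 had all tamoxifen values below all untreated values, where the share of such genes among 18843 gene names with any signal was 5.38%. These were 8 ligands (Wnt1, Wnt3, Wnt6, Wnt7b, Wnt9a, Wnt9b, Wnt10a and Wnt10b), the antagonists Dkk3, Sfrp2 and Wif1, and Axin2. Part of this count lies near the floor. The highest value in any sample was 0.0889 FPKM for Wnt1, 0.123 for Wnt9b, 0.252 for Wnt10a, 0.303 for Wif1 and 0.554 for Wnt10b. Sfrp4 was the 1 gene with all tamoxifen values above, where the share over all gene names was 3.72%. Compared within replicate numbers, 18 of the 37 genes were lower with tamoxifen in 3 of 3 numbers and 3 were higher in 3 of 3 (Wnt5b, Sfrp1 and Sfrp4). The same shares over all gene names were 23.8% and 20.6%.

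**Figure D1:**
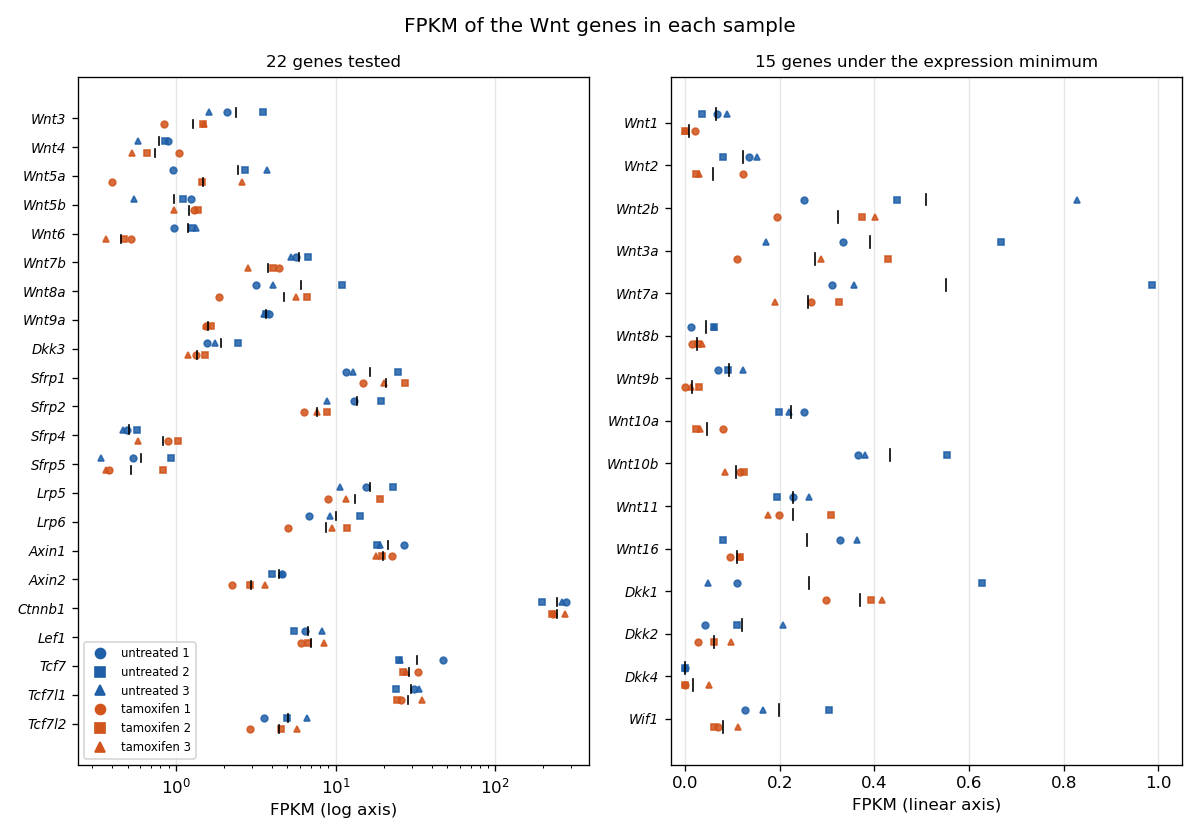
FPKM of each of the 37 genes in each sample, with the 22 tested genes on a log axis (left) and the 15 genes under the expression minimum on a linear axis (right); blue symbols are untreated and orange symbols tamoxifen samples, the shape gives the replicate number and black ticks mark group means (n = 3). The blue and orange symbols of Wnt6, Wnt7b, Wnt9a, Wnt10a and Wnt10b do not overlap, whereas those of Ctnnb1 and the 4 TCF/LEF genes interleave.

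Several of these genes start in DNA dense in CpG, the dinucleotide that the ZF-CxxC domain binds. RefSeq (GRCm38.p6) gave 35 transcription starts for 26 of the 37 genes. No entry was matched for Wnt5a, Wnt7b, Wnt8a, Wnt10a, Dkk3, Dkk4, Sfrp1, Sfrp4, Lrp5, Lrp6 and Axin1. In the 250 bases before the start, the highest CpG count per gene had a median of 23.5 over the 26 genes and of 6 over all 27025 genes in the table, and 24 of the 26 lay above 6. Wnt9a had the highest count of the family, with 48. The upstream 250 bases of 3 genes that fell with the block and of Ctnnb1, whose level was alike in both groups, are shown 5′ to 3′ on the gene's strand, with each CpG in capitals.
Wnt9a (chr11:59306680-59306929, + strand): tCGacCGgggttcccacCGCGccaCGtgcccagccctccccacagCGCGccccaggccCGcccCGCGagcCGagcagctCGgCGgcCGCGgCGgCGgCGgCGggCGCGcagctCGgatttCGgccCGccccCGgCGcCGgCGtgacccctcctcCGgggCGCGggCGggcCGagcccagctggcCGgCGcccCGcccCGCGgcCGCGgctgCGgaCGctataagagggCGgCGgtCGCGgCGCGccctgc
Wnt6 (chr1:74771642-74771891, + strand): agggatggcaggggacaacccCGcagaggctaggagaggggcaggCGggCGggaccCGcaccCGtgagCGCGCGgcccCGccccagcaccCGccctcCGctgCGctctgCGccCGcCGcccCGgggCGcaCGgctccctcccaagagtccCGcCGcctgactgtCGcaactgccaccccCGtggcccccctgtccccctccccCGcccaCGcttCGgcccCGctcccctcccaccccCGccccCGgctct
Sfrp2 (chr3:83766071-83766320, + strand): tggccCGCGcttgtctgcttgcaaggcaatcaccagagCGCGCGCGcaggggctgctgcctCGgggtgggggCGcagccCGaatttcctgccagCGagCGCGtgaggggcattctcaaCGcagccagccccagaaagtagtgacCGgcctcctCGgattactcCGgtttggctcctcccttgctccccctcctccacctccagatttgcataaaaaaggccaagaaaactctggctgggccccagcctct
Ctnnb1 (chr9:120933150-120933399, + strand): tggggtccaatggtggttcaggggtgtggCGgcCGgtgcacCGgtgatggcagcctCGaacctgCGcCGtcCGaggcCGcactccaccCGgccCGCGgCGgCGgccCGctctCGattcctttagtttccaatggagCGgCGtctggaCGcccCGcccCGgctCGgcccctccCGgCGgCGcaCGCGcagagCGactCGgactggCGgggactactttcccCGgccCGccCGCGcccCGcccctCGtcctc
The 4 windows held 48, 28, 16 and 35 CpG in that order, so Ctnnb1 lay below Wnt9a and above both Wnt6 and Sfrp2. The other start of Ctnnb1, not shown, held 43. The motif CTTTGAA or CTTTGAT, the core sequence that TCF/LEF proteins recognise, was found on either strand in 3 of the 35 starts (Dkk1, Wnt11 and the most downstream start of Wnt5b), and 7.48% of all 32851 starts held it. None of the 4 windows shown contained it.

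Wnt9a, a ligand known for its part in joint formation, showed the smallest SD relative to its mean of the 8 tested ligands in each group and the lowest adjusted p of the 22 tested genes. Its locus is chr11:59120432-59147054 (mm9, + strand). It measured 3.81, 3.67 and 3.57 FPKM in the untreated samples and 1.55, 1.66 and 1.54 FPKM in the tamoxifen samples. All 3 tamoxifen values were under all untreated values, and no sample stood apart within its group. The means were 3.68 ± 0.123 and 1.58 ± 0.0665 FPKM (SD, n = 3), a log2 difference of -1.17 ± 0.14 (SE with the block), with limma adjusted p = 0.382 without and 0.00532 with the block. The difference was -1.24, -1.10 and -1.16 within replicate numbers 1, 2 and 3. It was the gene that passed in 7 of the 8 fits with a block, and without replicate 2 its limma adjusted p was 0.0729.

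Wnt6, a ligand expressed in many embryonic epithelia, differed by a similar amount at a lower level. Its locus is chr1:74818466-74831893 in mm9, and its FPKM was 0.969, 1.26 and 1.34 in untreated and 0.524, 0.473 and 0.364 in tamoxifen samples. The groups did not overlap, and the gap between them was smallest in replicate 1. On the log2 scale the difference was -1.22 ± 0.25 (SE), with limma adjusted p = 0.489 without and 0.0248 with the block. Wnt6 passed the filter mainly through its untreated samples, so its call is conditioned on that difference. With the block and no filter, a fit added after the data had been seen, its limma adjusted p was 0.0683. Without replicate 2 or without replicate 3 the adjusted p with the block was 0.185 or 0.0639.

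Wnt7b, a ligand required in the placenta and the lung, was among the most abundant Wnt transcripts. At chr15:85365867-85412251 in mm9, it measured 5.69, 6.70 and 5.28 FPKM in untreated and 4.45, 4.04 and 2.82 FPKM in tamoxifen samples. Every tamoxifen value was below every untreated value, and tamoxifen replicate 3 was the lowest. Its log2 difference was -0.65 ± 0.14 (SE), with limma adjusted p = 0.901 without and 0.0317 with the block. Its adjusted p with the block was 0.204 without replicate 2, 0.123 without replicate 3, 0.0651 under quantile normalization and 0.214 under TPM scaling. The locus of Wnt7b overlaps AU022754 in the tables, and it is not stated whether counting used the strand of the directional reads, so fragments of the pair may not be separated.

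Wnt5a, which acts mostly through pathways that do not use beta-catenin, varied more between replicate numbers than between groups. Its locus is chr14:29318659-29338701 in mm9, and its FPKM was 0.962, 2.70 and 3.74 in untreated and 0.396, 1.45 and 2.59 in tamoxifen samples. In both groups replicate 1 was lowest and replicate 3 highest, and the groups overlapped, yet each tamoxifen sample was below the untreated sample of its number. The log2 difference was -0.82, with an SE of 0.67 without the block and 0.18 with it, and limma adjusted p = 0.999 and 0.0334. With the block its adjusted p was 0.214 without replicate 2, 0.0502 without replicate 3, 0.0527 under quantile normalization and 0.146 under TPM scaling. Its close paralog Wnt5b measured 1.25, 1.10 and 0.551 FPKM in untreated and 1.29, 1.39 and 0.974 FPKM in tamoxifen samples. Wnt5b was thus higher with tamoxifen in 3 of 3 numbers, by 0.04, 0.31 and 0.72, and did not pass (log2 difference 0.36 ± 0.21, limma adjusted p = 0.293 with the block). Wnt5b overlaps Fbxl14 in the tables, with the same limit on strand.

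The ligands tied to the primitive streak, Wnt3, Wnt3a and Wnt8a, did not pass in either fit with all samples. Wnt3 measured 2.08, 3.49 and 1.62 FPKM in untreated and 0.847, 1.47 and 1.51 FPKM in tamoxifen samples. The groups did not overlap, but untreated replicate 3 and tamoxifen replicate 3 were close. This gave a log2 difference of -0.83 ± 0.25 (SE), with limma adjusted p = 0.999 without and 0.0725 with the block, and 0.0151 with the block once replicate 3 was left out. Wnt8a, the most abundant ligand by its untreated mean, measured 3.16, 11.0 and 4.04 FPKM in untreated and 1.87, 6.66 and 5.65 FPKM in tamoxifen samples. Replicate 2 was highest in both groups, and the direction differed between numbers, lower with tamoxifen in replicates 1 and 2 and higher in replicate 3. Its log2 difference was -0.32 ± 0.24 (SE) with limma adjusted p = 0.389 with the block, and 0.0465 without replicate 3. Wnt3a, the ligand most used to stimulate the pathway in culture, was too low to be tested. It measured 0.333, 0.667 and 0.170 FPKM in untreated and 0.110, 0.429 and 0.288 FPKM in tamoxifen samples, with overlap.

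Wnt4, a ligand of kidney and ovary development, measured 0.898, 0.860 and 0.579 FPKM in untreated and 1.04, 0.662 and 0.529 FPKM in tamoxifen samples. The groups overlapped fully and the log2 difference was -0.08 ± 0.23 (SE, limma adjusted p = 0.832 with the block), a direction that flipped under quantile normalization and TPM scaling.

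Of the 11 ligands under the filter, Wnt10b and Wnt10a had the largest mean differences on the scale of log2(FPKM + 0.1), which understates those of Wnt1 and Wnt9b at their lower levels. Wnt10b measured 0.364, 0.554 and 0.381 FPKM in untreated and 0.115, 0.125 and 0.0837 FPKM in tamoxifen samples. Wnt10a measured 0.252, 0.198 and 0.219 FPKM in untreated and 0.0794, 0.0239 and 0.0322 FPKM in tamoxifen samples. For both, every tamoxifen value was under every untreated value. In a fit with the block and no filter, an alternative added after the data had been seen, Wnt10b and Wnt10a fell by 1.35 and 1.17 on the log2 scale with limma adjusted p = 0.0468 and 0.0474, where 1.28% of the 18843 genes fell. In that fit Wnt9a passed as well and Wnt5a, Wnt6, Wnt7b and Sfrp2 did not.

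Wnt7a and Wnt2b each reached 0.5 FPKM in a single sample. Wnt7a, best known from limb patterning, measured 0.310, 0.988 and 0.356 FPKM in untreated and 0.266, 0.325 and 0.189 FPKM in tamoxifen samples, with untreated replicate 2 far above the rest. Wnt2b measured 0.252, 0.447 and 0.828 FPKM in untreated and 0.193, 0.374 and 0.401 FPKM in tamoxifen samples, with untreated replicate 3 the highest. In both genes the groups overlapped. The other ligands (Wnt1, Wnt2, Wnt8b, Wnt9b, Wnt11 and Wnt16) ranged from 0 to 0.363 FPKM over all samples. Of these, Wnt1 was listed at 0 in tamoxifen replicates 2 and 3 and Wnt9b in tamoxifen replicate 1, and both had untreated values of 0.0356 to 0.123 FPKM.

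Summed over the 19 ligands, the FPKM was 21.2, 34.2 and 23.7 in untreated and 13.2, 19.6 and 17.3 in tamoxifen samples. All tamoxifen sums were under all untreated sums. Wnt7b made up 22.9% ± 3.67 of the untreated sum and 23.5% ± 9.10 of the tamoxifen sum (SD, n = 3), and Wnt9a 14.6% ± 3.65 and 9.71% ± 1.81. Wnt8a ranged from 14.2% in tamoxifen replicate 1 to 34.0% in tamoxifen replicate 2.

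**Figure D2:**
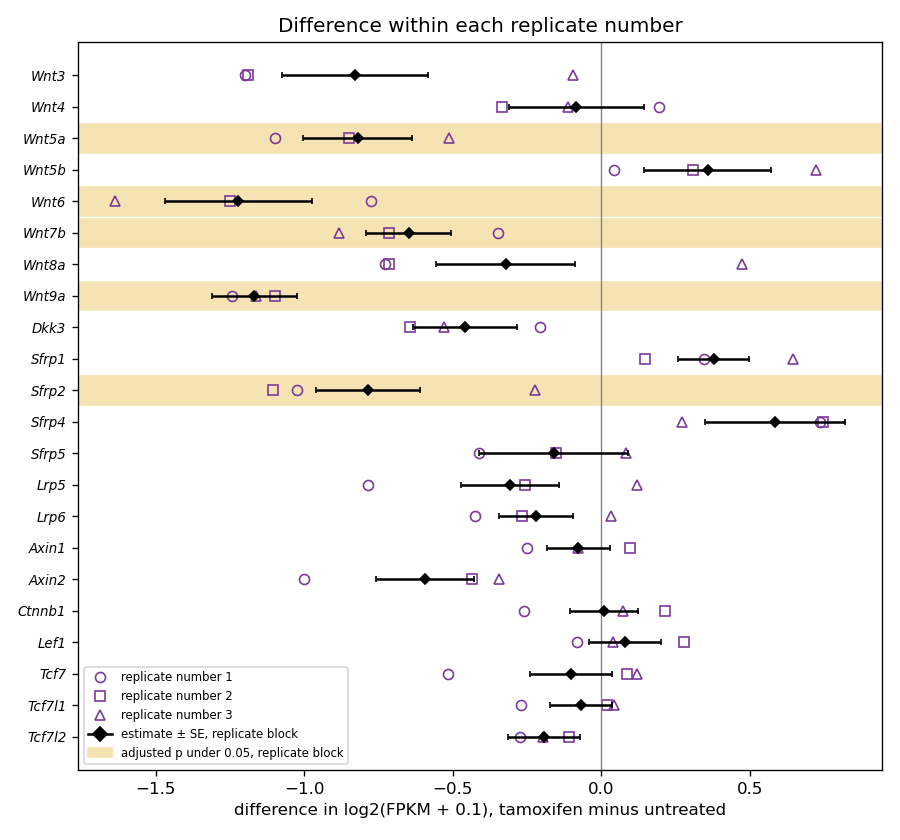
Difference in log2(FPKM + 0.1), tamoxifen minus untreated, for the 22 tested genes; open symbols are the differences within replicate numbers 1, 2 and 3, black diamonds with bars the estimate ± SE from the fit with the replicate block, and shaded rows the 5 genes with adjusted p under 0.05 in that fit. Wnt9a has 3 nearly equal differences, whereas Wnt8a has 2 below 0 and 1 above.

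Many Wnt genes lie in adjacent pairs, and 4 such pairs with no other gene between them in the tables were among the 37. On chromosome 11, Wnt3a and Wnt9a are 16178 bp apart and point away from each other. Wnt9a fell with the block to 0.430 of its untreated mean, while the groups of Wnt3a overlapped. Also on chromosome 11, Wnt9b and Wnt3 are 24353 bp apart and again divergent, and both had tamoxifen values that did not overlap with untreated ones, at levels of 0.0935 and 2.40 FPKM in the untreated mean.

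On chromosome 15, Wnt10b and Wnt1 are 11706 bp apart and divergent, and on chromosome 1, Wnt6 and Wnt10a are 6699 bp apart on the same strand. All 4 of these genes had tamoxifen values under all untreated values. Wnt1 measured 0.0680, 0.0356 and 0.0889 FPKM in untreated and 0.0215, 0 and 0 FPKM in tamoxifen samples, the lowest of the 4. Thus in 3 of the 4 pairs both genes separated the groups in the same direction. The share of single gene names with all tamoxifen values below all untreated values was 5.38%. Each of these 3 pairs holds a gene near the floor, with a highest value of 0.123 FPKM for Wnt9b, 0.0889 FPKM for Wnt1 and 0.252 FPKM for Wnt10a. Whether the genes of a pair move together more than others was not tested.

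**Figure D3:**
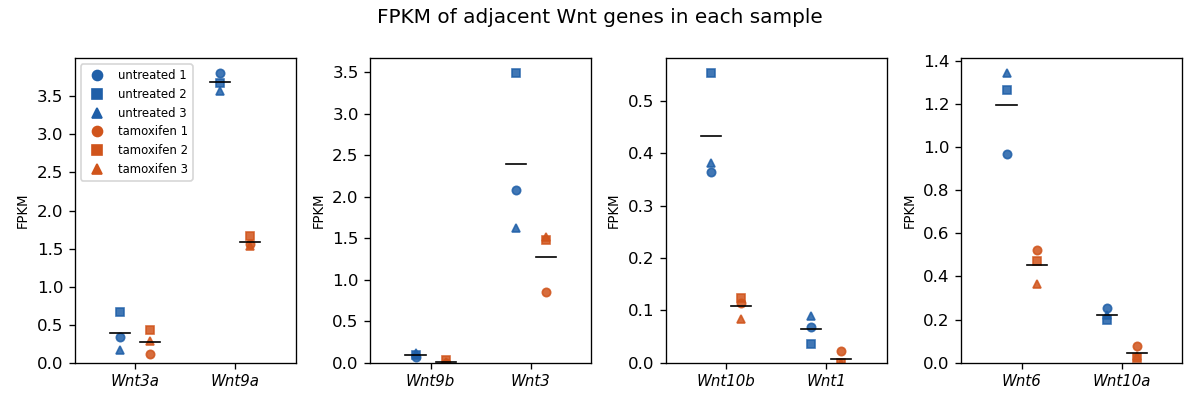
FPKM in each sample (linear axes, each panel on its own scale) for the 4 adjacent pairs Wnt3a and Wnt9a, Wnt9b and Wnt3, Wnt10b and Wnt1, and Wnt6 and Wnt10a; symbols are samples, shapes replicate numbers and black lines group means (n = 3). In every panel but the first, orange tamoxifen symbols lie below blue untreated symbols for both genes.

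Among the secreted antagonists, Sfrp1 and Sfrp2 were the abundant members and lay in opposite directions. Both encode decoys with a Frizzled-like domain that bind Wnt proteins outside the cell. Sfrp2 (mm9 chr3:83570243-83578236) measured 13.0, 19.2 and 8.90 FPKM in untreated and 6.31, 8.88 and 7.61 FPKM in tamoxifen samples. The groups did not overlap, although untreated replicate 3 at the low end was close to tamoxifen replicate 2. The log2 difference was -0.78 ± 0.18 (SE), with limma adjusted p = 0.872 without and 0.0337 with the block. With the block the adjusted p was 0.217 without replicate 2 and 0.0584 under quantile normalization.

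Sfrp1 measured 11.6, 24.5 and 12.8 FPKM in untreated and 14.8, 27.2 and 20.1 FPKM in tamoxifen samples. The groups overlapped, replicate 2 was highest in both, and each tamoxifen sample was above the untreated sample of its number. The log2 difference of 0.38 ± 0.12 (SE) did not pass (limma adjusted p = 0.0852 with the block). The ratio of Sfrp2 to Sfrp1, formed after their values had been seen and given without a test, was 1.11, 0.784 and 0.694 in untreated and 0.426, 0.327 and 0.379 in tamoxifen samples.

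Sfrp4 was low and the only gene of the 37 with every tamoxifen value above every untreated value. It measured 0.498, 0.572 and 0.465 FPKM in untreated and 0.897, 1.03 and 0.582 FPKM in tamoxifen samples, and tamoxifen replicate 3 was close to the untreated values. Its log2 difference was 0.59 ± 0.24 (SE, limma adjusted p = 0.148 with the block). Sfrp5 measured 0.543, 0.934 and 0.341 FPKM in untreated and 0.384, 0.830 and 0.367 FPKM in tamoxifen samples, with overlap and a log2 difference of -0.16 ± 0.25 (SE, limma adjusted p = 0.698 with the block).

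Dkk3, a divergent Dickkopf relative that does not block LRP6 as its namesakes do, measured 1.57, 2.45 and 1.77 FPKM in untreated and 1.34, 1.53 and 1.20 FPKM in tamoxifen samples. Its groups did not overlap, with untreated replicate 1 and tamoxifen replicate 2 nearly level. Its log2 difference was -0.46 ± 0.17 (SE, limma adjusted p = 0.130 with the block). Dkk1, the LRP6-binding antagonist and itself a target of the pathway, was under the filter at 0.109, 0.627 and 0.0474 FPKM in untreated and 0.297, 0.393 and 0.416 FPKM in tamoxifen samples. Its untreated values spanned the tamoxifen ones. Wif1, which binds Wnt ligands directly, did not exceed 0.303 FPKM and Dkk2 did not exceed 0.206 FPKM. Dkk4 was listed at 0 in all samples but tamoxifen replicate 3.

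The co-receptors followed the replicate number more than the treatment. Lrp5 measured 15.5, 22.8 and 10.7 FPKM in untreated and 8.96, 19.1 and 11.6 FPKM in tamoxifen samples. Lrp6 measured 6.81, 14.2 and 9.24 FPKM in untreated and 5.05, 11.8 and 9.47 FPKM in tamoxifen samples. For both, replicate 2 was highest in each group and the groups overlapped. The log2 differences were -0.31 ± 0.17 for Lrp5 and -0.22 ± 0.12 for Lrp6 (SE, limma adjusted p = 0.252 and 0.272 with the block).

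Axin2, the scaffold that the pathway itself induces and therefore its usual readout, was lower in all tamoxifen samples without passing the test. It measured 4.60, 3.99 and 4.64 FPKM in untreated and 2.25, 2.92 and 3.63 FPKM in tamoxifen samples. The groups did not overlap, and they were furthest apart in replicate 1. The fitted log2 difference was -0.59 ± 0.16 (SE), with limma adjusted p = 0.999 without and 0.0603 with the block. With a pseudocount of 1 in place of 0.1 its adjusted p with the block was 0.0468, in a fit where 7.16% of all tested genes fell, and over the 8 fits with a block it ranged from 0.0468 to 0.313.

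Axin1, the constitutive scaffold, measured 26.7, 18.2 and 19.0 FPKM in untreated and 22.4, 19.4 and 18.0 FPKM in tamoxifen samples, and the groups overlapped. Its log2 difference was -0.08 ± 0.11 (SE, limma adjusted p = 0.652 with the block), with the opposite sign under TPM scaling. Beta-catenin itself was the most abundant transcript of the 37. Ctnnb1 measured 276, 196 and 261 FPKM in untreated and 231, 227 and 274 FPKM in tamoxifen samples, and neither group stood above the other. The log2 difference was 0.01 ± 0.11 (SE, limma adjusted p = 0.967 with the block), a sign that turned under quantile normalization. Since beta-catenin is controlled mainly through the stability of the protein, these values describe only its transcript.

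The TCF/LEF factors were all expressed, with Tcf7 and Tcf7l1 at similar levels and Lef1 and Tcf7l2 several fold lower. Tcf7 measured 46.8, 24.9 and 25.4 FPKM in untreated and 32.8, 26.5 and 27.6 FPKM in tamoxifen samples. Tcf7l1 measured 31.2, 24.0 and 33.5 FPKM in untreated and 25.8, 24.3 and 34.6 FPKM in tamoxifen samples. The groups of both overlapped, and replicate 1 held the highest Tcf7 value in each group. Lef1, which like Tcf7 acts mostly as an activator with beta-catenin, measured 6.40, 5.52 and 8.21 FPKM in untreated and 6.05, 6.71 and 8.43 FPKM in tamoxifen samples. Tcf7l2 measured 3.55, 4.93 and 6.59 FPKM in untreated and 2.92, 4.56 and 5.74 FPKM in tamoxifen samples. Replicate 3 was the highest of each group for Lef1, Tcf7l1 and Tcf7l2.

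The log2 differences of Tcf7, Tcf7l1, Lef1 and Tcf7l2 were -0.10 ± 0.14, -0.07 ± 0.10, 0.08 ± 0.12 and -0.19 ± 0.12 (SE with the block), with limma adjusted p between 0.317 and 0.693. The sign for Tcf7l1 turned under TPM scaling. As a share of the FPKM of the 4 factors, Tcf7 was 43.2% ± 9.48 in untreated and 42.4% ± 6.18 in tamoxifen samples (SD, n = 3). Tcf7l1 was 40.4% ± 5.04 and 40.9% ± 3.84, Lef1 9.24% ± 1.93 and 10.3% ± 1.15, and Tcf7l2 7.10% ± 2.67 and 6.40% ± 1.80. Each mean share thus moved by less than 1 SD of the untreated samples. The locus of Tcf7l1 overlaps Gm15401 in the tables.

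**Figure D4:**
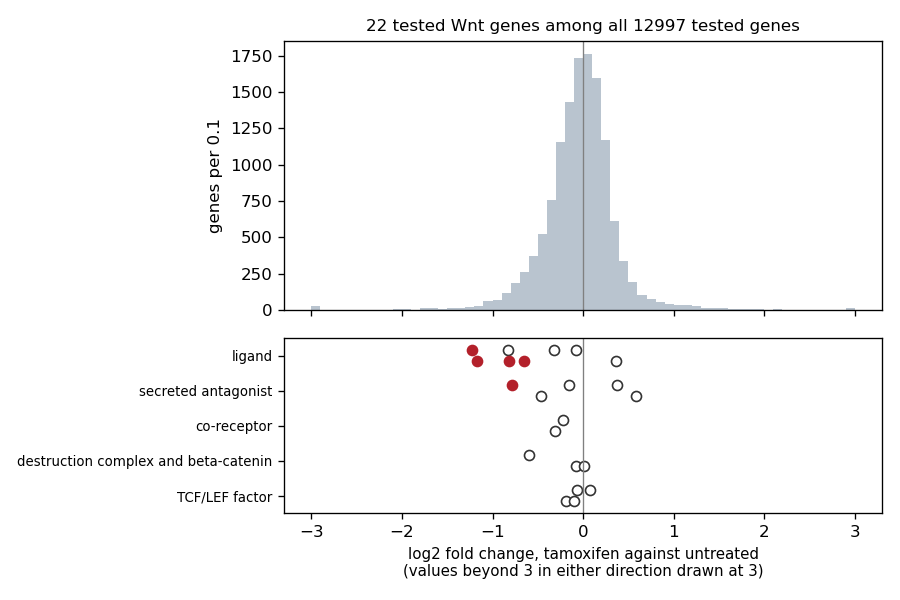
Top, histogram of the log2 fold change of all 12997 tested genes in bins of 0.1; bottom, the same quantity for the 22 tested Wnt genes by role, with red points for genes with adjusted p under 0.05 in the fit with the replicate block and small vertical offsets that only separate points. Ligands extend to -1.22, while the 4 TCF/LEF factors lie between -0.19 and 0.08.

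Other genes of the pathway were read from a list of 69 receptors, secretion factors, antagonists, transducers, cofactors and targets, of which 56 were tested. Without the block 0 passed in limma in either direction, with 5 at an unadjusted p under 0.05, where 4.79% of all tested genes were. With the block 3 rose and 8 fell, where 4.33% of all tested genes rose and 6.06% fell. Without replicate 2 in that fit only Porcn passed, where 36 of all 12997 tested genes rose and 43 fell. Porcn, the enzyme that attaches the lipid to Wnt proteins, gave the lowest adjusted p of them. It measured 6.82, 9.92 and 4.97 FPKM in untreated and 16.7, 21.6 and 10.8 FPKM in tamoxifen samples. All tamoxifen values were above all untreated values, with a log2 difference of 1.16 ± 0.10 (SE) and limma adjusted p = 0.602 without and 0.00301 with the block. Wls, which carries lipid-modified Wnt to the cell surface, fell with the block from 11.1, 19.4 and 26.3 FPKM in untreated to 7.49, 13.7 and 16.6 FPKM in tamoxifen samples (log2 difference -0.58 ± 0.10, limma adjusted p = 0.0144).

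Of the 10 tested Frizzled receptors 3 fell with the block, where 6.06% of all tested genes fell. These were Fzd1, Fzd6 and Fzd10, with log2 differences of -0.91, -0.77 and -0.67 and limma adjusted p of 0.0317, 0.0322 and 0.0487. The groups of Fzd6 and Fzd10 overlapped. Under quantile normalization with the block 1 of the 10 fell, where 4.58% of all tested genes fell. Ptk7, a co-receptor of planar polarity signalling, and Pygo1, a nuclear cofactor of beta-catenin, fell by 0.44 and 0.78 on the log2 scale (limma adjusted p = 0.0467 and 0.0482 with the block). Pygo1 did not pass under quantile normalization with the block. Btrc, which helps to mark beta-catenin for degradation, rose by 0.54 (limma adjusted p = 0.0288 with the block).

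Among the 15 listed target genes, 12 were tested, in a fit with the block where 6.06% of all tested genes fell and 4.33% rose. With the block Cdx2 and Myc fell by 1.26 and 0.87 on the log2 scale and Fgf8 rose by 1.18 (limma adjusted p = 0.0312, 0.00489 and 0.0200). Cdx2 passed the filter only through its untreated samples, at 1.82, 0.816 and 1.14 FPKM against 0.407, 0.433 and 0.494 FPKM in tamoxifen samples, so its call is conditioned on that difference. Myc measured 11.4, 16.1 and 29.6 FPKM in untreated and 5.62, 9.04 and 17.3 FPKM in tamoxifen samples, so each tamoxifen sample was under the untreated sample of its number while the groups overlapped. Fgf8 measured 2.17, 1.14 and 0.521 FPKM in untreated and 3.35, 2.89 and 1.84 FPKM in tamoxifen samples, and its groups overlapped too. The 3 targets that passed thus did not share a direction. Of the 15 listed targets 7 were lower and 2 higher with tamoxifen in 3 of 3 numbers. The same shares over all gene names were 23.8% and 20.6%.

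Markers of other cell types were read beside these values, in the fit with the block where 6.06% of all tested genes fell and 4.33% rose. Of the 8 listed neural progenitor markers 4 were tested, and these 4 fell with the block (0 passed without it, as for every marker list). Hes5, under the filter, was higher with tamoxifen in 3 of 3 numbers. The 8 markers summed to 43.4 to 50.4 FPKM in untreated and 22.3 to 30.9 FPKM in tamoxifen samples. Of the 10 listed primitive endoderm markers 6 were tested and 5 fell with the block, while Dab2 was higher in 3 of 3 numbers. Gata6, 1 of the 5 that fell, passed the filter only through its untreated samples. Sums over the 10 were 67.4 to 130.0 and 39.7 to 78.2 FPKM. Most of each sum came from Lamb1 and Col4a1, at 60.1 and 57.6 FPKM in untreated replicate 2. No other marker of that list exceeded 6.97 FPKM. Of the 8 listed primitive streak markers 2 were tested. Eomes fell with the block but did not pass under quantile normalization with the block. T had a log2 difference of 0.38 and did not pass. The 8 summed to 3.81 to 6.19 and 3.39 to 4.51 FPKM. Feeder fibroblast markers followed the replicate number, at 57.5, 164.0 and 120.6 FPKM in untreated and 60.3, 149.6 and 110.8 FPKM in tamoxifen samples, and 1 of 13 tested genes fell (Fbln2). Markers of ESCs summed to 1614 to 2014 and 1810 to 2236 FPKM with 0 of 10 passing, and no listed marker of any type was at 0 in all samples. The part of these cell types in the Wnt values was not tested. In bulk RNA, fewer cells of a type and less RNA per cell cannot be told apart.

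Kdm2b itself, counted over the whole gene and so without resolving the floxed exon, measured 25.4 ± 3.36 FPKM in untreated and 22.3 ± 2.60 FPKM in tamoxifen samples (SD, n = 3), with limma adjusted p = 0.306 with the block. The level of the gene therefore does not check the labels. Total read numbers are not in the tables. Steps of single fragments in low genes gave an estimate of depth relative to untreated replicate 1. It was 1, 0.954 and 0.765 in untreated and 0.792, 0.877 and 0.653 in tamoxifen samples. Each estimate is the most frequent ratio among low genes. Only 15.5% to 17.0% of those genes lay at that ratio in samples other than untreated replicate 1, so the estimates are rough.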

How the data were processed

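Poly(A)+ RNA was sequenced as directional libraries of paired 51 bp reads. The authors aligned them to mm9 with TopHat2 and quantified refGene models with Cuffdiff 2.1.1, and deposited 1 table of FPKM values per sample, with no counts. Samples were grouped by their titles. The ChIP samples of the series were not analysed here. FPKM were summed by gene name, and of 23369 names the 6 that Cuffdiff marked as failed in some sample were dropped. Genes with at least 0.5 FPKM in at least 3 of 6 samples (12997) were put on the scale log2(FPKM + 0.1), and the groups were compared by limma 3.58.1 (R 4.3.3, two-sided, moderated by eBayes with a trend), and p-values were adjusted by the Benjamini-Hochberg method over all of them. The design without a block came first and the replicate number, taken from the titles, was the alternative. Deviations from the group mean correlated at 0.544, 0.605 and 0.506 across genes between samples of the same number and at -0.379 to -0.105 between samples of different numbers, so the numbers were treated as pairs. That different numbers correlate below 0 follows in part from deviations that sum to 0 within a group. Because the FPKM give no read counts, no counting intervals are given, and relative depth was estimated from single-fragment steps in low genes.

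Other settings were pseudocounts of 0.01 and 1, TPM scaling, quantile normalization, no filter, a filter of 1 FPKM in all 6 samples, no trend, the highest row per gene name, and leaving out replicates. Gene positions are those of the tables in mm9, with 1-based starts. Promoter windows came from RefSeq on GRCm38.p6, and motifs and CpG were counted in Python 3.11.15. All 37 genes were named, those passing the filter or reaching 0.5 FPKM with each sample's value, and of the other pathway genes up to 3 per list past the threshold, by the largest fold change. The genes, lists and tests were chosen with earlier results of these data known.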

Additional observations from a re-analysis of the deposited data

How the results depend on the processing

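Without a block, 0 of the 22 tested Wnt genes and 0 of the 56 other pathway genes passed in limma under any setting or with any replicate left out. With the replicate block, 5 Wnt genes and 8 other pathway genes fell and 3 other pathway genes rose, where 6.06% of all tested genes fell and 4.33% rose. Other settings with the block are given as the Wnt genes that fell, the other pathway genes that fell and those that rose. These numbered 2, 5 and 3 under quantile normalization, where 595 of all tested genes fell and 604 rose. Under TPM scaling they were 3, 2 and 2, where 336 fell and 430 rose. With a pseudocount of 1 they were 6, 10 and 3, where 931 fell (against 787) and 659 rose. With no filter, a setting chosen after seeing the data, they were 3, 2 and 1, where 241 of 18843 genes fell and 167 rose. With the block and a replicate number left out they ranged from 0 to 5, from 0 to 7 and from 1 to 3. The count of Wnt genes was 5 without replicate 1, 0 without replicate 2 and 4 without replicate 3, each with 2 samples per group left. Of all tested genes 1011, 43 and 478 fell and 744, 36 and 359 rose in these fits, in the same order. No result of a single gene could be lost, since 0 of the 22 genes passed in the main fit without a block. Over the other settings 26 such results were gained, all of them with a block, and the cause was not tested. The median difference of the 22 genes ranged from -0.478 to -0.103 with 1 sample or number left out, the lowest value being that without tamoxifen replicate 2, and from -0.314 to -0.118 with the block and a number left out.

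Several genes changed sign in some settings. Under TPM scaling, with or without the block, Wnt4 was at 0.0037, Axin1 at 0.023 and Tcf7l1 at 0.032. Under quantile normalization, with or without the block, Wnt4 was at 0.029 and Ctnnb1 at -0.076. With 1 sample or number left out and no block, the difference ranged from -0.324 to 0.106 for Wnt4, -0.181 to 0.0971 for Axin1, -0.224 to 0.0312 for Tcf7l1, -0.142 to 0.144 for Ctnnb1, -0.258 to 0.196 for Tcf7, -0.721 to 0.231 for Wnt8a, -0.484 to 0.158 for Sfrp5, -0.473 to 0.132 for Lrp6, -0.054 to 0.231 for Lef1 and -0.415 to 0.0701 for Tcf7l2. With the block and a number left out it reached 0.0415 for Wnt4 (without replicate 2), 0.0092 for Axin1, 0.104 for Tcf7 and 0.0312 for Tcf7l1 (without replicate 1), -0.0206 for Lef1 and -0.0934 for Ctnnb1 (without replicate 2), and -0.022 for Ctnnb1 (without replicate 3).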
